A study of Mus musculus with 4 samples.

Results

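Chemokine receptors and the receptor for sphingosine-1-phosphate (S1P) steer lymphocytes and myeloid cells between blood and lymphoid organs. The genes described here are 8 of these receptors, Ccr1, Ccr2, Ccr6, Ccr7, Ccr9, Cxcr4, Cxcr5 and S1pr1, chosen by gene name in the scanner files. They are 8 of 31829 gene names on the array and are read by 9 of its 39429 mouse probes. The samples were splenocytes from female C57BL/6 mice at 8 weeks of age, all grown for 72 h with IL-4 and LPS, a pair of stimuli that make B cells divide and switch antibody class. The 2 imatinib samples had 10 µM imatinib, a tyrosine kinase inhibitor that acts on ABL, KIT and the PDGF receptors, and the 2 control samples had none. Separate mice or cultures within a group are not stated, so the p-values measure only the spread between these samples, which may be technical. The labels state a question on class switching and E2A and none on homing receptors.

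The receptors are G protein-coupled and signal mainly through inhibitory G proteins. CCR7 draws lymphocytes and mature dendritic cells to the T cell zone, CXCR5 draws B cells into follicles, and S1PR1 lets lymphocytes leave lymphoid organs toward the higher S1P of blood and lymph. CXCR4 retains cells in bone marrow and places B cells within germinal centres, CCR9 guides cells to the thymus and small intestine, and CCR6 acts at mucosal surfaces. CCR1 and CCR2 recruit monocytes and other myeloid cells.

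The probes are 60-base oligonucleotides. The first 30 bases of those on which the results turn are given 5′ to 3′ from the scanner files, since the values are the signals of these probes and Ccr9 was read by a pair of unlike ones. The place of a probe within its transcript was not analysed here.
Ccr7, A_55_P2023542: cagccactgatacctttcctcatgttctgc
Cxcr5, A_52_P70796: gggaaaccaatgctatagcttcagagactg
Cxcr4, A_52_P585124: aggaagaaactgaacattccagaatgtgtg
S1pr1, A_52_P532227: aagatgaaaatgtgttccttttttgtcaca
Ccr9, A_52_P30312: caggcaagaggcacttgctgcaggttctcc
Ccr9, A_55_P2308239: ctcagatcctctttaagagtgttatatagt
Ccr6, A_55_P2108943: acacgagagcacaaagcaacattgccccaa
No other probe on the array had the sequence of any of the 9, and the longest perfect run of a repeated unit of 1 to 3 bases in them was 7 bases.

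The arrays were alike in depth. Between 25017 and 26758 probes were well above background on an array, the 75th percentile of the processed signal ran from 629 to 782 fluorescence units. No spot was saturated. Across tested probes, which are not independent replicates, Pearson's r was 0.998 within the imatinib group, 0.997 within the control group and 0.982 to 0.984 between an imatinib and a control array. Levels are log2 processed signals relative to the 75th percentile of their array, and differences are imatinib minus control. Of 25373 probes tested, 10753 (42.4%) passed a Benjamini-Hochberg adjusted p of 0.05 in the limma fit, 4737 (18.7%) higher and 6016 (23.7%) lower with imatinib. Precision is limited by the number of arrays: the smallest two-sided p of an exact permutation test with 2 arrays in each group is 0.333.

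Of the 8 receptor genes, 6 were well above background on all 4 arrays. Ccr7, Cxcr4, S1pr1 and Ccr9 rose with imatinib, Cxcr5 fell, and Ccr6 did not pass the test. Each of the 4 rises was at least 2-fold. Of all tested probes, 5.91% both passed the test and rose by at least that much. Ccr1 and Ccr2 were not well above background on any array and were not tested. The imatinib and control arrays did not overlap for 5 of the 6, as for 73.4% of all tested probes. The median difference of the 6 tested genes was 1.25, against -0.01 over all tested probes.

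**Figure D1:**
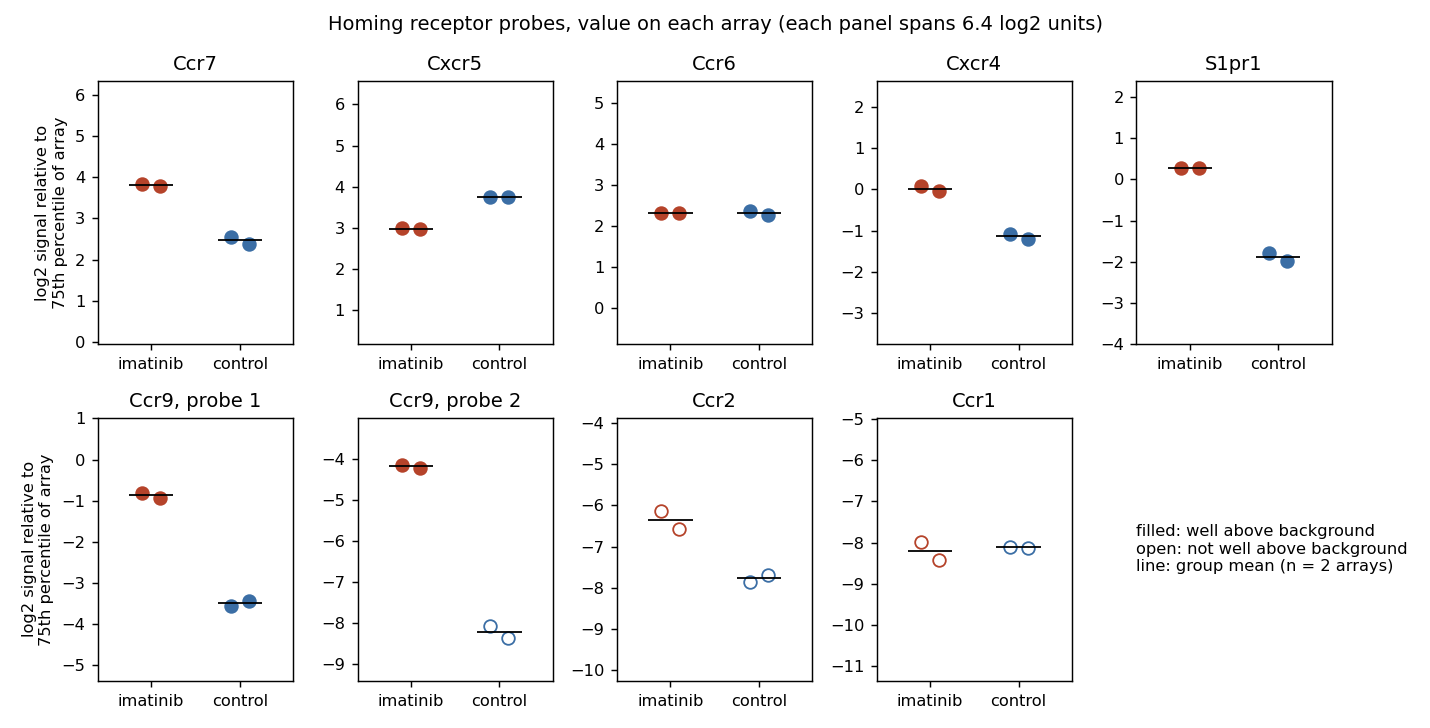
Log2 processed signal of the 9 receptor probes, minus the 75th percentile of each array, on the imatinib arrays (left in each panel) and the control arrays (right). Filled points were well above background, open points were not, and lines are group means (n = 2 arrays). Every panel spans the same number of log2 units, centred on its own midpoint, so heights cannot be compared between panels. The groups separate for Ccr7, Cxcr5, Cxcr4, S1pr1 and Ccr9 and overlap for Ccr6 and Ccr1. They also separate for Ccr2, where no point was well above background.

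Among the receptors that place cells within lymphoid organs, Ccr7, which brings cells to the T cell zone, was higher with imatinib. Its normalised log2 signal was 3.84 and 3.78 on the imatinib arrays, against 2.55 and 2.38 on the control arrays. In fluorescence units before scaling, this was 9281 and 8651 with imatinib and 3983 and 4084 in control. Both imatinib arrays lay above both control arrays, with a gap far wider than the distance between the arrays of a group. The group means were 3.81 ± 0.043 with imatinib and 2.47 ± 0.12 in control (SD, n = 2 arrays each), a log2 difference of 1.34 (SE 0.085, limma adjusted p = 0.0021), or 2.54-fold.

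Cxcr5, the follicle homing receptor, moved the other way. Its log2 signal was 2.98 on both imatinib arrays, against 3.76 on both control arrays. The groups did not overlap, and the arrays within each group differed by about 0.01 or less. The means of 2.98 ± 0.0064 and 3.76 ± 0.0017 (imatinib and control, SD, n = 2 arrays each) differed by -0.78 (SE 0.056, limma adjusted p = 0.0028). The processed signal was thus 1.71-fold lower with imatinib. Its small SE rests on the spread borrowed from all probes by the moderated test, since the spread of these 4 values alone was smaller.

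Cxcr4, the receptor for CXCL12, was 0.07 and -0.04 on the imatinib arrays, against -1.09 and -1.20 on the control arrays. The groups were again apart. The means were 0.01 ± 0.082 and -1.14 ± 0.081 (imatinib and control, SD, n = 2 arrays each), and the difference was 1.16 (SE 0.080, limma adjusted p = 0.0026), or 2.23-fold higher.

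The distance between these receptors shifted within each array. The log2 ratio of the Ccr7 to the Cxcr5 signal was 2.12 higher on the imatinib arrays than on the control arrays, and the ratio of Cxcr4 to Cxcr5 was 1.93 higher. The ratio of Ccr7 to Cxcr4 moved by 0.19. These shifts do not depend on scaling by a constant per array, because such a constant cancels in a ratio within an array. Quantile normalization and background correction are not constants and can change them. The shifts show unequal change of the probes without telling which of them changed.

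S1pr1, the exit receptor, had a log2 signal of 0.28 and 0.27 on the imatinib arrays, against -1.80 and -1.98 on the control arrays. Before scaling, its signal was 785 and 759 units with imatinib and 195 and 198 in control. The imatinib arrays nearly coincided and both lay above the control arrays. The means were 0.28 ± 0.0056 and -1.89 ± 0.13 (imatinib and control, SD, n = 2 arrays each), with a difference of 2.17 (SE 0.085, limma adjusted p = 9.3e-04), or 4.48-fold.

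Ccr9, the receptor of gut and thymus homing cells, had the largest difference of the 6 tested genes. On A_52_P30312, the probe for its RefSeq transcript, the log2 signal was -0.81 and -0.93 on the imatinib arrays, against -3.55 and -3.44 on the control arrays. The groups did not overlap, and all 4 values were well above background. The means of -0.87 ± 0.087 and -3.49 ± 0.080 (imatinib and control, SD, n = 2 arrays each) differed by 2.62 (SE 0.081, limma adjusted p = 7.4e-04), or 6.16-fold. The signal was modest, at 369 and 330 units with imatinib and 57.9 and 72.3 in control, and with normexp background correction, which shrinks differences of dim probes, the difference was 1.88.

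The other Ccr9 probe, A_55_P2308239, was designed on a thymus cDNA that the array annotation calls unclassifiable, so its target is uncertain. Its signal was 36.3 and 33.7 units on the imatinib arrays, against 2.51 and 2.36 on the control arrays, where it was not well above background. Against the lowest signal of any probe well above background on the control arrays, it was at least 4.18-fold higher with imatinib. The limma adjusted p of 7.4e-04 belongs to the fitted log2 difference of this probe, 4.04, taken against control signals at background. Its group means on the log2 scale were -4.19 and -8.23 (imatinib and control), and the normexp difference was 0.70. This probe entered the test only through its imatinib signals and is not taken as support for the RefSeq probe.

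Ccr6, the CCL20 receptor, was the tested gene that did not pass. Its log2 signal was 2.33 and 2.32 on the imatinib arrays, against 2.38 and 2.28 on the control arrays, so the imatinib values lay between the control values. The difference was -0.0036 (SE 0.066, limma adjusted p = 0.97), with a 95% interval of -0.19 to 0.18. Scaling moved this value across 0: quantile normalization gave 0.096, median centring gave -0.18, and scaling on the spike-in probes gave -0.27, where it passed (limma adjusted p = 0.044). Relative to Ccr6, within the same arrays, the Ccr7 signal shifted by 1.35, that of Cxcr4 by 1.16 and that of Cxcr5 by -0.77.

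**Figure D2:**
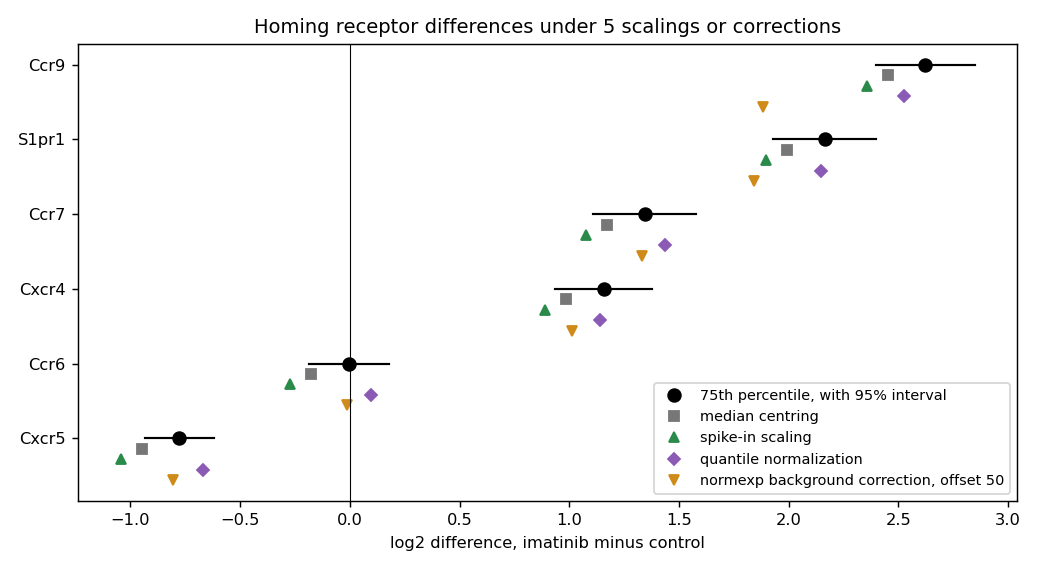
Log2 difference, imatinib minus control, of the 6 tested receptor genes (Ccr9 by its RefSeq probe) after scaling on the 75th percentile, with its 95% interval, and under 3 other scalings and another background correction. Ccr9, S1pr1, Ccr7 and Cxcr4 stay right of 0 and Cxcr5 left of it in all 5, while Ccr6 lies between -0.27 and 0.10.

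The myeloid receptors were too dim to measure. The Ccr1 signal was 2.54 and 1.83 units on the imatinib arrays, against 2.48 and 2.77 on the control arrays, and the groups overlapped. The Ccr2 signal was 9.15 and 6.56 units with imatinib, against 2.92 and 3.80 in control. The lowest signals of any probe called well above background were 8.99 and 6.54 units with imatinib and 8.84 and 10.3 in control, so the imatinib values of Ccr2 sat at that edge. When dim probes were kept in the limma fit, Ccr2 passed (adjusted p = 0.039) and Ccr1 did not (adjusted p = 0.77). As neither gene was above background in either group, no fold is given, and a change in them was not measurable at this signal.

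Spleen cultures hold several cell types that carry these receptors, and the marker lists moved in the same arrays. Of 12 T cell markers, 10 rose and none fell, where 18.7% of all tested probes rose and 23.7% fell. The median difference of the markers was 1.37. Their summed signal, each array divided by its 75th percentile, was 58.5 and 58.6 on the imatinib arrays, against 29.5 and 28.5 on the control arrays, and all 12 were well above background on every array. Cd8a, a chain of the cytotoxic T cell coreceptor, rose by 2.42 and Lat, a T cell receptor adaptor, by 2.17, whereas Cd4, named after its value was seen, differed by 0.05 and did not pass. T cells also express Ccr7, S1pr1, Cxcr4 and Ccr9, as background knowledge, and the part of T cell RNA in their rise was not tested.

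Of 9 B cell markers, 5 fell and 2 rose (median -0.27), with 2 down and 1 up when either imatinib array was left out, and their summed signal was 261 and 271 with imatinib against 314 and 293 in control. Over all tested probes, 23.7% fell and 18.7% rose. Cd22, an inhibitory coreceptor, fell by 1.06 and Fcer2a, the IgE receptor CD23, fell by 0.93. The largest rise on the list was 0.81. Cr2 rose by 0.53, a call that ended without a filter on dim probes (limma adjusted p = 0.056) and under spike-in scaling (0.077). Cd79a (-0.07) and Cd79b (-0.02) did not pass, though both did under spike-in scaling (-0.34 and -0.29). Cr2, Cd79a and Cd79b were named after their values were seen. B cells carry CXCR5 and CCR6 and, like T cells, CCR7, CXCR4 and S1PR1, as background knowledge. Of these, Cxcr5 fell, Ccr6 did not pass, and Ccr7, Cxcr4 and S1pr1 rose. The part of B cell RNA in these values was not tested. In bulk RNA, fewer cells of a type and less RNA per cell cannot be told apart.

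The counts of the further cell type lists stand beside 18.7% of all tested probes higher and 23.7% lower. Of 12 macrophage and monocyte markers, 9 were tested, 5 rose and none fell (median 0.50). Median centring gave 5 up and 1 down and spike-in scaling 4 up and 2 down, and over the 8 of them above background on all arrays the median was 1.06. Their summed signal was 6.05 and 6.39 on the imatinib arrays, against 3.87 and 3.79 on the control arrays, while C1qa, C1qc and Fcgr1 were not well above background on any array. Adgre1, the macrophage antigen F4/80, rose by 3.59 and Lyz2, a lysozyme with a close relative, by 2.79. The 4 that did not pass were Siglec1 (-0.41), Mpeg1 (-0.16), C1qb (-0.03) and Csf1r (0.26), named after their values were seen. Among the other lists, 4 of 6 tested neutrophil markers rose (S100a8 by 3.24 and Mpo by 0.94). Of 6 NK cell markers, only 2 were tested, and both rose on their brightest probes (Eomes by 0.90 and Nkg7 by 0.36). The other probes of Eomes and Nkg7 rose by 2.44 and 1.53. Of 4 tested erythroid markers, 2 rose, Hba-a1 by 0.61 and Hbb-b1 by 0.42, globin genes with close relatives. Mast cell and basophil markers had 3 up and 1 down of 4 (Kit 1.75, Hdc -0.58), or 1 up and 1 down of the 2 above background on all arrays. Dendritic cell markers had 1 up and 2 down of 5 (Itgax at least 2.51-fold higher and not well above background in control, Flt3 -1.42, Batf3 -1.20). Plasma cell markers had 3 up and 2 down of 6 (median 0.08), or 0 up and 3 down under spike-in scaling. Jchain (-0.87) and Tnfrsf17 (-0.71) fell, and the largest rise was that of Xbp1 (0.55), named after its value was seen. The calls of Nkg7 (by its brightest probe), Hbb-b1 and Hdc ended in several alternatives. Among these was the fit without a filter on dim probes (limma adjusted p of 0.11, 0.051 and 0.087).

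The ligands of the receptors, and the genes that supply or clear S1P, were described from a list of 20 genes, of which 17 were tested. Of these, 12 rose and none fell, with a median of 1.06, where 18.7% of all tested probes rose (spike-in scaling gave 11 up and 3 down). Some entered the test only through their imatinib signals: over the 14 above background on all arrays, 9 rose, with a median of 0.85. Without a filter on dim probes 10 rose, and normexp background correction gave a median of 0.44. The 7 ligands of Ccr1 and Ccr2 on the list all rose, although the receptors themselves were at background. Ccl3 (MIP-1 alpha) rose by 2.83 (SE 0.057), Ccl6 by 2.67, Ccl9 by 2.52 and Ccl5 (RANTES) by 0.91, all of them ligands of CCR1. Of the CCR2 ligands, Ccl2 (MCP-1) rose by 2.74 and Ccl12 by 1.06. Ccl7, not well above background in control, was at least 25.9-fold higher, which equals its measured fold. The call for Ccl12 (limma adjusted p = 0.025) ended without imatinib replicate 1 (0.082), without imatinib replicate 2 (0.092) and without a filter on dim probes (0.080).

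Fewer ligands of the lymphoid and gut receptors were measurable. Ccl19, a CCR7 ligand made by stromal and dendritic cells, had log2 signals of -3.33 and -3.44 with imatinib, against -3.10 and -3.59 in control, and its difference of -0.04 (SE 0.18) did not pass. The brightest Ccl21 probe, from a family of near-identical genes, differed by -0.17 and did not pass, though it did under median centring (-0.34) and spike-in scaling (-0.44). The other tested Ccl21 probe went the other way, by 0.63, and did not pass. Cxcl12, Cxcl13 and Ccl20, the ligands of CXCR4, CXCR5 and CCR6, were not well above background on both arrays of either group and were not tested. Ccl25, the CCR9 ligand, differed by 0.31 (SE 0.081, limma adjusted p = 0.045), a call that ended under median centring (0.14, adjusted p = 0.30) and spike-in scaling (0.04, adjusted p = 0.74) and when any of 3 arrays (either imatinib array or control replicate 2) was left out.

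Enzymes on both sides of S1P supply were higher. Sphk1, a kinase that makes S1P, had log2 signals of -2.65 and -2.67 with imatinib, against -3.97 and -3.84 in control, and rose by 1.25 (SE 0.073, limma adjusted p = 0.0018). Sgpl1, the lyase that breaks S1P down, rose by 1.61 (SE 0.060, limma adjusted p = 8.6e-04), with 3.27 and 3.26 with imatinib against 1.62 and 1.68 in control. The exporter gene Spns2 rose by 0.79. Plpp3, a lipid phosphatase that dephosphorylates S1P outside cells, was at least 2.26-fold higher, since its control signals were not well above background. The kinase Sphk2, the phosphatase Sgpp1 and the exporter Mfsd2b differed by 0.11, -0.02 and -0.06 and did not pass. Spike-in scaling gave -0.16, -0.29 and -0.33 for them, and there Sgpp1 and Mfsd2b passed.

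**Figure D3:**
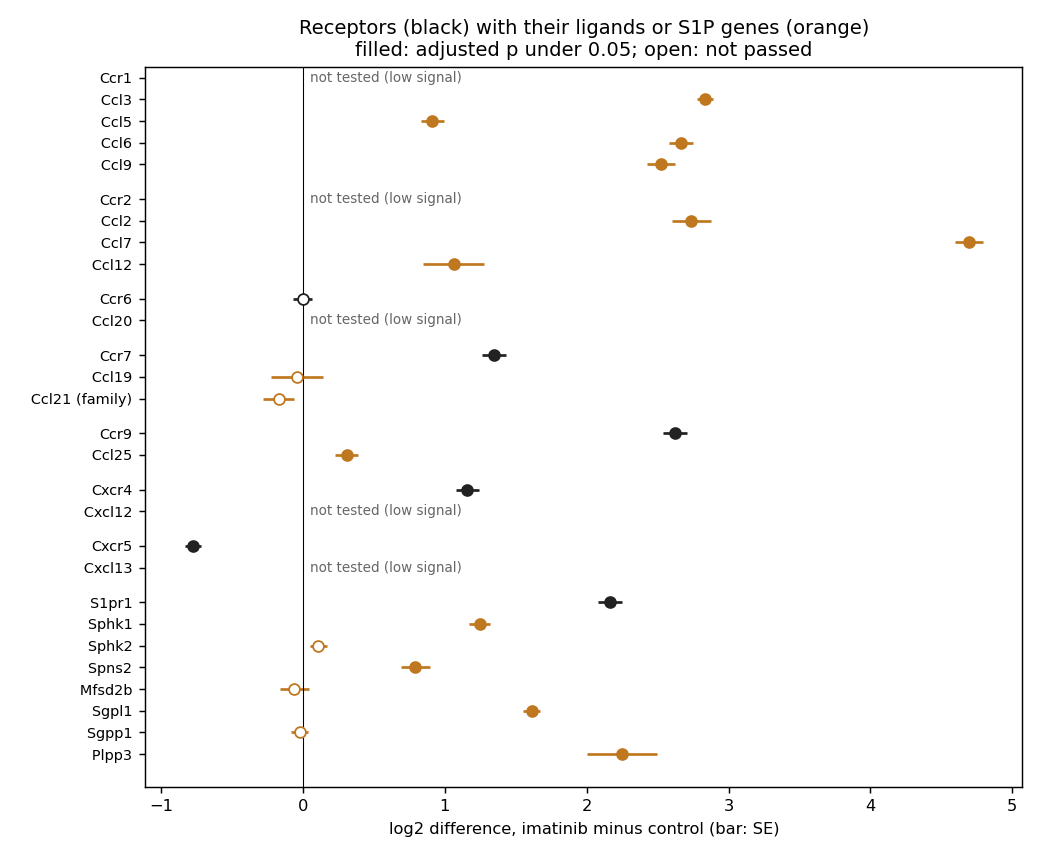
Log2 difference, imatinib minus control, of each receptor gene (black) above its ligands or, for S1pr1, the genes of S1P supply (orange). Bars are SE, filled points passed an adjusted p of 0.05, and genes without a point were too dim to test; control signals of Ccl7 and Plpp3 were not well above background, so their points are fitted values. The ligands of Ccr1 and Ccr2 lie from 0.91 to 4.69, while those of Ccr7 lie at -0.04 and -0.17 (Ccl21 by its brightest probe).

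Genes that act downstream of the receptors or control them were taken from a list of 34, all tested, of which 11 rose and 5 fell, where 18.7% of all tested probes rose and 23.7% fell. The median was 0.02, and spike-in scaling gave 8 up and 13 down. With any 1 array left out, at most 1 of them fell. The largest rises above background on all arrays were in regulators of G protein signalling, which shorten receptor signals. Rgs2 rose by 2.64 (SE 0.061), Rgs10 by 2.16 and Rgs1, known to limit chemokine responses of B cells, by 1.47. Other Rgs genes changed less or went the other way. Rgs18 rose by 0.55, and the Rgs3 probes differed by 0.05 to 1.04. Rgs14 differed by 0.23 and Rgs16 by -0.27 (limma adjusted p = 0.042 and 0.040), calls that ended without a filter on dim probes. Rgs13 (0.20) and the brightest Rgs19 probe (-0.16) did not pass, while 2 of 3 Rgs19 probes were called lower. Grk3, a receptor kinase (Adrbk2 in the files), was at least 5.66-fold higher and not well above background in control. Grk5 and Grk6, of the same family, differed by -0.37 and -0.27 (limma adjusted p = 0.026 and 0.028), calls that ended when any of the 4 arrays was left out. Gnai2, the main inhibitory G protein subunit of lymphocytes, differed by -0.07, Dock2, a Rac activator of migrating lymphocytes, by -0.16 and Rac2 by -0.11, none of which passed, though all of them did under spike-in scaling (-0.34, -0.43 and -0.38). Rgs3, Rgs13, Rgs14, Rgs16, Rgs18, Rgs19, Grk3, Grk5, Grk6, Gnai2, Dock2 and Rac2 were named after their values were seen.

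Klf2, a transcription factor known to maintain S1pr1 in resting lymphocytes, rose by 1.33 (SE 0.072, limma adjusted p = 0.0015). Its log2 signal was 3.54 and 3.48 with imatinib, against 2.24 and 2.13 in control, so the groups were apart as for S1pr1. Foxo1, a factor upstream of Klf2 in lymphocytes, differed by 0.44 (limma adjusted p = 0.0091), a call that ended under median centring (0.26, adjusted p = 0.062) and spike-in scaling (0.17, adjusted p = 0.17) and when either imatinib array was left out (0.067 and 0.068). Cd69, whose protein holds S1PR1 inside activated lymphocytes, fell by 0.62 (SE 0.064, limma adjusted p = 0.0057), with 1.64 and 1.56 with imatinib against 2.20 and 2.23 in control. S1pr1 and Klf2 rose and Cd69 fell in the same arrays, and a link between these RNA values was not tested. Foxo1 was named after its value was seen.

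Of 16 adhesion genes of homing, 15 were tested, 5 rose and 5 fell, against 18.7% and 23.7% of all tested probes. Median centring and spike-in scaling each gave 3 up and 7 down, and leaving out either imatinib array gave 2 up and 4 down. Their median was 0.07, and its sign turned with the scaling: quantile normalization gave -0.03, median centring -0.10 and spike-in scaling -0.20. Itgb7, the beta 7 integrin chain with which CCR9-bearing cells enter the gut, had log2 signals of 1.41 and 1.44 with imatinib, against -0.36 and -0.55 in control, and rose by 1.88 (SE 0.088, limma adjusted p = 0.0012). Icam1, an integrin ligand induced by inflammatory signals, fell by 0.93. Itgax, the CD11c integrin chain that also stands among the dendritic cell markers, was at least 2.51-fold higher. Itgax and Itga4 were named after their values were seen. Itga4, the partner of beta 7 on gut-homing cells, differed by 0.44, a call (limma adjusted p = 0.026) that ended without imatinib replicate 1 (0.12), imatinib replicate 2 (0.088) or control replicate 2 (0.065). The Itgam probe fell by 1.13, but it holds a run of 20 bases of a repeated CA unit, and another Itgam probe differed by 0.42, so its target is uncertain.

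Of 25 other receptors for chemoattractants, 19 were tested, 10 rose and 4 fell, against 18.7% and 23.7% of all tested probes, with a median of 0.28. The counts were 9 and 6 with either median centring or spike-in scaling, 6 and 1 without imatinib replicate 1 and 6 and 2 without imatinib replicate 2. Fpr1 and Fpr2, receptors for formylated peptides on neutrophils and macrophages, rose by 2.85 and 2.06, and the family has close relatives. Cxcr6, a receptor of activated and memory T cells, rose by 2.21 (SE 0.093), with 0.52 and 0.49 with imatinib against -1.60 and -1.81 in control. Ackr2 (Ccbp2 in the files), a scavenger of inflammatory chemokines, fell by 1.03. Within the S1P receptor family, named after their values were seen, S1pr4 differed by -0.36 and S1pr3 by 0.28 (limma adjusted p = 0.019 and 0.023, both calls ended by leaving out any array), S1pr2 differed by -0.23 and did not pass (it did with median centring, quantile normalization and spike-in scaling, at -0.40, -0.40 and -0.50), and S1pr5 was not tested, against 2.17 for S1pr1.

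**Figure D4:**
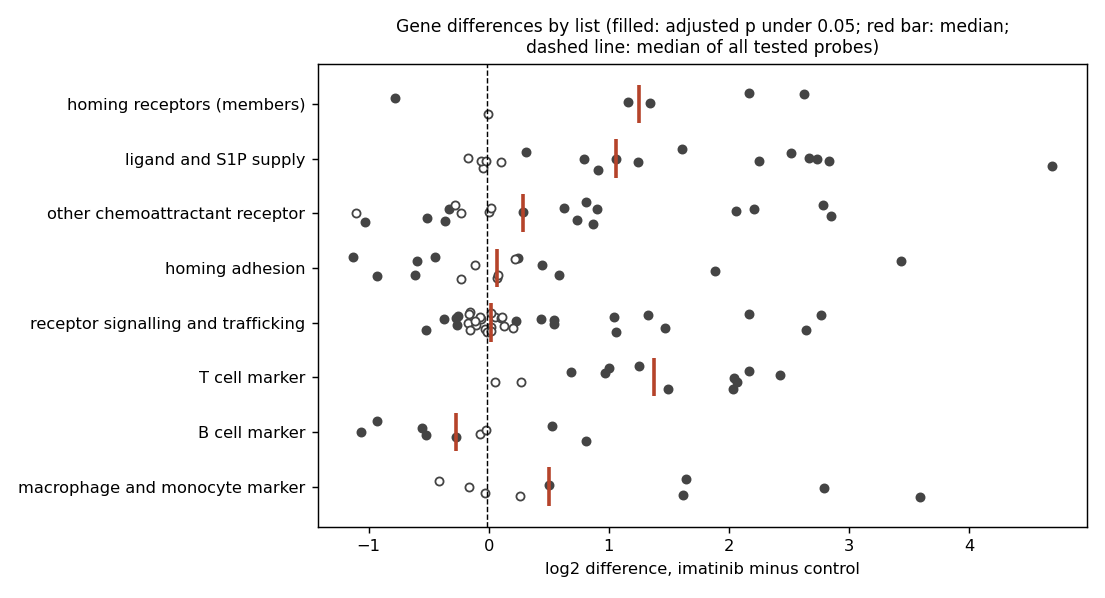
Log2 difference, imatinib minus control, of every tested gene of the receptor list, of the 4 lists of related genes and of 3 cell type lists. Filled points passed an adjusted p of 0.05, red bars are medians and the dashed line is the median of all tested probes, -0.01. The receptors and T cell markers have medians of 1.25 and 1.37, and the B cell markers one of -0.27.

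The genes nearest in pattern to Ccr7 and Cxcr5 were found by the Euclidean distance between their values on the 4 arrays, each minus the mean of the probe. For Ccr7 these were Zcchc24, Aebp1 and Dcaf12l2, at distances of 0.033 to 0.043 log2 units and with differences of 1.31, 1.34 and 1.35. For Cxcr5 they were Slamf1, Gemin5 and Nsun5, at 0.018 to 0.025, with differences of -0.78, -0.79 and -0.78. With 4 arrays such likeness is a description only.

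Promoter sequence was at hand for some of the receptors. The RefSeq table of build GRCm38.p6 held 6 promoters for 5 of the 8 genes (Cxcr4, Ccr9, Ccr1, Ccr2 and, with 2 starts, Ccr6). The 250 bases before each start were searched on both strands for CAGGTG and CAGCTG, motifs of E2A, the factor the study names, for a STAT motif (TTC and GAA with any 4 bases between), and for GTAAACA, a FOXO motif, and the 1 match found overlapped no other motif. Of these 6 promoters, 1 held CAGGTG, which 17.2% of all 32851 promoters of this length hold, and none held CAGCTG, the STAT motif or GTAAACA, which 13.0%, 5.85% and 3.17% of all promoters hold. The promoters of Ccr9 (chr9:123766961-123767210, plus strand) and Cxcr4 (chr1:128592300-128592549, minus strand), both higher with imatinib, are shown with the CAGGTG match of Ccr9, starting 85 bases before the start, in capitals.
Ccr9 promoter: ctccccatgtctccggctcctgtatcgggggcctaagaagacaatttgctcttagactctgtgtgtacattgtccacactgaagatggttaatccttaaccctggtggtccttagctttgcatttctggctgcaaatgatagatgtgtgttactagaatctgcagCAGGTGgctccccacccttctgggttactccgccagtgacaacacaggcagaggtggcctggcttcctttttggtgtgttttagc
Cxcr4 promoter: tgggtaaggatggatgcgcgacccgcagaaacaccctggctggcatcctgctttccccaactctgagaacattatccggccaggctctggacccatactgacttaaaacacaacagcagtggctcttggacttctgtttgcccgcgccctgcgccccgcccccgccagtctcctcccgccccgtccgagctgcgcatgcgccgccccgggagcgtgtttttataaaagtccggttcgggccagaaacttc
A match is a description of these letters and not a site of binding.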

How the data were processed

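RNA of 4 splenocyte samples was measured on Agilent 1-colour (Cy3) arrays. The deposited scanner files hold intensity per spot from Feature Extraction 9.1.3.1, background-subtracted and detrended within each array, per the file headers. The deposited log2 value table was made in GeneSpringGX, per the series design text. Its columns equal log2 of the processed signal minus a constant per array, within 0.01 for 99.88% to 99.93% of probes (medians -4.00 and -3.92 for imatinib, -4.10 and -4.17 for control).

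Here, control spots and spots marked as outliers were left out, log2 signals of spots of a probe were averaged, and each array was scaled to its 75th percentile. Probes well above background on both imatinib or both control arrays were tested (92 more had a marked value and were left out) with limma 3.58.1 in R 4.3.3 (lmFit and eBayes, two-sided, 2 residual and 2.06 prior degrees of freedom). SD and SE are on the log2 scale. The brightest tested probe stood for a gene, and no listed gene had probes called in opposite directions. A bound sets the bright group against the higher of the dim signal and the lowest signal well above background. Genes were named by rule: all receptors and ligands, and, by size of change among those that passed, up to 4 genes per related list and 2 per cell type list, genes well above background on all 4 arrays taken first. A listed gene is not reported here. Members and lists were chosen with earlier results of these data known. All arrays lay on 1 slide in 1 scan. No pairing by replicate number was seen (correlation of deviations -0.069), though a check on 2 arrays per group cannot exclude it. Alternatives were other background corrections, scalings, filters and variance models, the replicate block, the deposited table and leaving out each array.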

Additional observations from a re-analysis of the deposited data

How the results depend on the processing

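The calls of Ccr7, Cxcr4, S1pr1, Ccr9 and Cxcr5 kept their direction and passed in all 13 alternatives run (12 for the dim Ccr9 probe). Differences ran from 1.08 to 1.43 for Ccr7, 0.89 to 1.22 for Cxcr4, 1.84 to 2.26 for S1pr1, 1.88 to 2.68 and 0.70 to 4.19 for the Ccr9 probes and -1.04 to -0.67 for Cxcr5, and the highest adjusted p (limma) was 0.029. Ccr6, near 0, was 0.0013 with the deposited table, 0.096 with quantile normalization, -0.27 with spike-in scaling (passing, so that 2 receptor genes were lower) and -0.052 to 0.045 with 1 array left out. Spike-in scaling moved the median of all probes to -0.28, median centring to -0.19, which sets the split of calls: 2802 higher and 11738 lower, and 3305 and 9251. The number of probes called was 5186 without a filter on dim probes and 4128 to 8985 with 1 array left out (4200 and 4128 without imatinib replicates 1 and 2). With the replicate block it was 7643, and the block left the receptor calls as they were.

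Of the lists, risen adhesion genes numbered 3 under median centring, without a filter and with spike-in scaling, and 2 to 4 with 1 array left out. Fallen ligand and S1P genes numbered 1 under median centring and 3 with spike-in scaling. Fallen other receptors numbered 2 without a filter and with the replicate block and 1 to 3 with 1 array left out, and risen ones 6 to 9. Fallen signalling genes numbered 9 under median centring, 13 with spike-in scaling, 8 by the probe with the smallest p, 1 without a filter and with the replicate block and 0 to 1 with 1 array left out, and risen ones 7 to 10. The causes were not tested. Signal over background limits what can be said of Ccr1, Ccr2, Cxcl12, Cxcl13 and Ccl20.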
